A study of Caenorhabditis elegans with 23 samples.

Results

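The comparison described here sets whole worms with few germ cells against wild type worms at the stage labelled L3, without RNAi. It uses 6 of the 23 arrays of a Caenorhabditis elegans study that asked how knockdown of ash-2, whose product belongs to the histone H3 lysine 4 methyltransferase complex, acts in worms with and without an intact germ line. The 3 wild type (WT) arrays are of strain N2 and the 3 others of glp-1(e2141ts), a temperature-sensitive allele of a Notch receptor gene. Both groups were fed the empty vector (EV) used as RNAi control. All 22548 probe sets were tested, and every difference is glp-1 minus WT on the log2 scale of the deposited intensities.

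The arrays were chosen by their labels for genotype, stage and treatment alone. Per the study's design notes the glp-1 worms develop 5 to 15 germ cells that enter meiosis, so they are a model of a reduced and not of a missing germ line. The labels give growth at 20 degrees for both genotypes, and they name no restrictive temperature for the mutant. Nothing in them says that arrays of 1 group are of separate cultures. The p-values therefore measure the spread between these arrays, which may be technical. Other groups used below are the same genotypes under ash-2 RNAi at L3 (3 arrays each) and under EV on day 8 (2 WT and 3 glp-1 arrays).

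GLP-1 is the receptor through which the distal tip cell of the somatic gonad keeps germline stem cells dividing. When its signal is lost, germ cells leave mitosis, enter meiosis early and form sperm, so that the adult gonad holds few germ cells and no oocytes. In the wild type germ line, dividing stem cells give way to meiotic cells, then to sperm and later to oocytes, and most of this tissue's transcripts serve RNA regulation, cell division and meiosis. Because the animals were extracted whole, fewer cells of a type and less RNA per cell cannot be told apart in any value below.

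Array medians lay between 5.72 and 5.89, and each array correlated with the rest of its group at a mean of 0.993 to 0.997. Defining markers of the germ line (19 of 19) and of oocytes (7 of 7) fell, and their summed signal in glp-1 did not overlap that in WT (10.52 to 10.80 against 13.90 to 14.08, and 8.81 to 10.47 against 13.34 to 13.55, log2 of the sum). Markers of early embryos (0 of 5 passed; log2 sums of 7.73 to 8.00 in glp-1 and 7.62 to 7.79 in WT) and of males (0 of 3; 5.59 to 5.74 and 5.52 to 5.70) were low, with 3 genes of each under the lower quartile of values. The stage label was read against late markers. Eggshell and yolk genes, which wild type hermaphrodites express as young adults, were high in the WT arrays: cpg-2, an eggshell proteoglycan gene, read 11.61 to 11.78, and vit-2, a yolk protein gene, 11.37 to 11.57. The adult collagen gene col-19, looked up after other values were seen, read 11.90 to 12.48 in WT and 12.04 to 12.70 in glp-1, with overlapping groups (difference 0.16 ± 0.26 SE, adjusted p = 0.620). These levels go against an L3 stage read literally, and L3 is used below only as the label.

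One array stands apart. The glp-1 EV 3 array read lower for oocyte and yolk genes than the other glp-1 arrays: 4.19 for cpg-2 against 7.68 and 8.55, and 5.2 against 7.98 and 8.88 for pos-1, a maternal RNA-binding protein gene. The eggshell permeability barrier genes perm-2 (11.23 against 12.38 and 12.41) and perm-4 (11.56 against 12.58 and 12.81) showed the same order. Its moulting genes were higher, at a median of 0.71 above WT against 0.47 and 0.49. Named genes whose difference this array moves by over 1.5-fold are given with and without it. In the glp-1 EV 2 array the 3 shared ash-2 probe sets read 7.98, 8.31 and 8.07, against 6.57 to 7.46 in the other glp-1 arrays and 6.93 to 7.24 in WT. The single-gene ash-2 probe set fell (6.60, 6.61 and 6.53 in WT; 6.05, 6.38 and 6.05 in glp-1; −0.42 ± 0.10, adjusted p = 0.00248).

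Most probe sets differed between the genotypes, and nearly all the large differences were falls. In limma's test across all probe sets with Benjamini-Hochberg adjustment, 12521 passed at 0.05, or 55.5%, with 7538 higher in glp-1 (33.4%) and 4983 lower (22.1%). At least 2-fold, 486 were higher (2.16%) and 2125 lower (9.42%), and at least 4-fold, 5 were higher and 697 lower. The passing probe sets name 5956 genes that rose and 4029 that fell, and 21 of these genes had probe sets passing both ways. The median difference of all probe sets was 0.11. How many small differences pass depends on the scaling. Median centring gave 10728 higher and 4493 lower. Setting arrays equal on the median level of muscle and neuron genes takes 0.61 off every glp-1 minus WT difference. The median difference was smaller, 0.54 for muscle genes and 0.40 for neuron genes, so both lists move below 0. This centring gave 906 higher and 15874 lower, 4312 of them at least 2-fold, with the median of all probe sets at −0.50. The shares above are the background against which each gene group below is read.

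The largest falls included many genes known from germ cells, and their level left in glp-1 ranged from near the floor to well above it. C48B4.10, a gene with no role given here, read 9.76, 9.83 and 9.90 in WT and 4.60, 4.12 and 4.32 in glp-1 (−5.48 ± 0.14, 44.7-fold lower, adjusted p = 5.25e-11). gld-1, whose KH-domain protein represses translation in meiotic germ cells, read 10.58, 11.08 and 10.91 against 5.90, 5.82 and 4.77 (−5.36 ± 0.45, adjusted p = 4.87e-07). A second, dimmer gld-1 probe set differed by −0.13 and did not pass. Also among the 20 largest falls were iff-1, a translation factor 5A gene used in germ cell proliferation (−5.02 ± 0.32, with a mean of 8.23 left in glp-1), the polo-like kinase gene plk-3 (−5.1 ± 0.52), the RNA-binding protein genes rbm-3.1 (−5.22 ± 0.34), mina-1 (−4.99 ± 0.28) and cpb-3 (−4.63 ± 0.32, with a second probe set at −2.05), the Y-box gene cey-2 (−4.55 ± 0.45) and got-2.1, an aspartate aminotransferase gene (−4.57 ± 0.20). All had groups that did not overlap, as the naming rule asked. Falls to the floor may be understated: 185 of the 2125 at least 2-fold (8.71%) ended under the lower quartile of the glp-1 arrays, and that quartile lies at 4.33 to 4.47 in the EV arrays.

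Most GLP-1 pathway and germline stem cell genes fell. Of 26 measured, 20 fell, 2 rose and 4 did not pass, with a median difference of −1.84. The receptor transcript glp-1 read 8.47, 8.49 and 8.64 in WT and 6.65, 6.56 and 6.58 in glp-1. The groups were far apart (−1.93 ± 0.13, 3.82-fold lower, adjusted p = 8.38e-08). Since the allele is a point mutation and the gene is expressed in germ cells, this level does not check the genotype. lst-1, a direct GLP-1 target that keeps stem cells, read 8.21, 8.20 and 7.97 against 6.64, 6.41 and 6.48 (−1.62 ± 0.11). sygl-1, the other such target, read low everywhere (4.47 to 4.63 against 4.49 to 4.78), and its groups overlapped (0.07 ± 0.10, adjusted p = 0.570).

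Signal partners of the receptor gave mixed values. The DNA-binding partner gene lag-1 fell by 0.78 (SE 0.13), and apx-1, a ligand gene supplied to embryos by the mother, fell by 1.71 (SE 0.09; a second probe set lay at 0.09). The ligand gene lag-2, expressed in the distal tip cell, read 4.59 to 4.88 in WT and 4.63 to 4.90 in glp-1 (0.07 ± 0.09, adjusted p = 0.527). The coactivator gene sel-8 was as dim (0.17 ± 0.11, adjusted p = 0.228), so neither shows whether its somatic source differed. lin-12, the other Notch receptor gene, rose by 0.43 (SE 0.13, adjusted p = 0.0138), a call lost without WT EV 1 (0.39) or glp-1 EV 3 (0.36). Its adjusted p was 0.0614 with an unequal variance test, and centring on muscle and neuron genes turned it to −0.18.

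Besides gld-1, above (−5.36), the regulators that act downstream of the receptor and are named here as lower fell by 0.54 to 3.57. The genes of PUF-family RNA-binding repressors that act in germline stem cells, fbf-1 (6.71, 7.24 and 6.55 against 4.68, 4.47 and 4.54), fbf-2 (7.65, 7.87 and 7.48 against 5.12, 4.84 and 5.01) and puf-8 (8.49, 8.65 and 8.4 against 5.19, 5.36 and 5.70), differed by −2.27, −2.67 and −3.1, and all 3 fell. No array of one genotype reached the range of the other. Genes for entry into meiosis included gld-3 (−2.93 ± 0.27), a partner of the poly(A) polymerase GLD-2, nos-3 (−1.74 ± 0.13), a Nanos relative, and gld-2 itself, which fell less (−0.54 ± 0.13, adjusted p = 0.00367, and 1 of its 5 probe sets passing; adjusted p = 0.0552 with an unequal variance test). The probe sets that moved least for gld-3 and nos-3 lay at −0.64 and −0.70, and both passed. The sperm fate genes fog-3 (−2.3 ± 0.20) and fog-1 (−0.68 ± 0.10), the GLD-2 partner rnp-8 (−2.01 ± 0.15) and ego-1, an RNA-dependent RNA polymerase gene found as an enhancer of glp-1 (−3.57 ± 0.21), fell. glp-4, a valyl-tRNA synthetase gene used in all tissues, rose (8.99 to 9.10 against 9.80 to 10.03; 0.83 ± 0.11, adjusted p = 2.48e-05), though not with muscle and neuron centring (0.22, adjusted p = 0.11), and atx-2, an ataxin-2 gene, lay at 0.03 (adjusted p = 0.817).

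**Figure D1:**
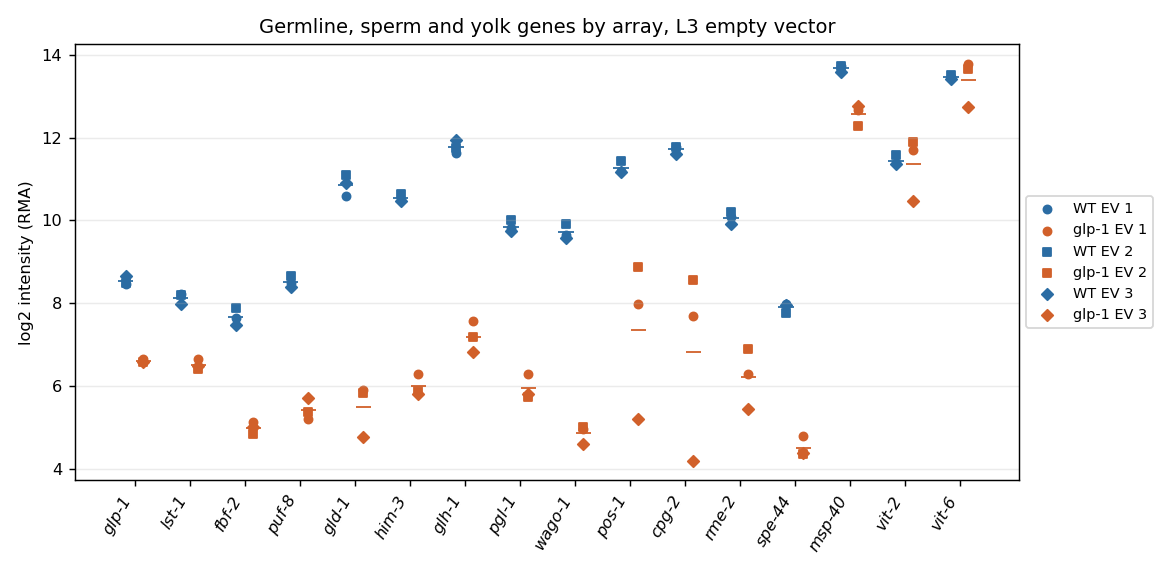
Log2 intensity of 16 genes in each of the 6 L3 EV arrays, WT in blue and glp-1 in orange, with lines at group means. The germline and oocyte genes separate by genotype, glp-1 EV 3 lies lowest for pos-1 (5.2), cpg-2 (4.19) and the yolk genes, and msp-40 stays above 12 in every array.

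Nearly all meiosis genes fell. Of 44 measured, 43 fell and 0 rose, with a median of −2.15 and 40 falls of at least 2-fold, against 22.1% falling among all probe sets. The axis genes him-3 (10.50, 10.64 and 10.46 against 6.28, 5.88 and 5.80; −4.54 ± 0.22), htp-1 (−4.77 ± 0.17) and htp-3 (−3.37 ± 0.15), whose HORMA-domain proteins lie along meiotic chromosomes, fell. So did syp-2, a gene of the synaptonemal complex (−3.20 ± 0.15), and zhp-3, a crossover factor gene (−2.50 ± 0.12, with a second probe set at −0.35).

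P granules are the RNA-protein bodies that mark germ cells, and 24 of 26 of their genes fell while 0 rose (median −2.58). Among the constitutive components, the helicase gene glh-1 read 11.62, 11.74 and 11.94 in WT and 7.57, 7.19 and 6.81 in glp-1 (−4.58 ± 0.15, 23.9-fold lower, adjusted p = 2.83e-10). Its relatives glh-4 (−3.01 ± 0.11) and glh-2 (−2.58 ± 0.14) fell by less, and glh-3 by 0.84 (SE 0.13). The scaffold genes pgl-1 (−3.91 ± 0.22), pgl-3 (−2.95 ± 0.15) and pgl-2 (−2.59 ± 0.13) and deps-1, a gene for P granule assembly (−4.22 ± 0.22) showed the same direction.

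Maternal P granule genes, whose transcripts are loaded into oocytes, spread widely among the glp-1 arrays. mex-5 read 6.51, 7.0 and 4.80 in glp-1 and 10.20 to 10.29 in WT (−4.15 ± 0.58, with a second probe set at −1.46; −3.50 without glp-1 EV 3), and pos-1 differed by −3.91 ± 1.07 (adjusted p = 0.00666), or by −2.84 without that array. The germline repressor gene pie-1 (−3.1 ± 0.23), the embryonic Nanos gene nos-2 (−2.21 ± 0.34) and meg-1 (−2.50 ± 0.26), an embryonic P granule gene, fell with less spread. The translational repressor genes cgh-1 (−1.84 ± 0.08) and car-1 (−1.43 ± 0.09) remained at 8.69 or more in glp-1. meg-2 (−0.13 ± 0.07) and znfx-1 (−0.08 ± 0.15, with a probe set at −0.69 that passed) did not pass on their brightest probe set.

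Small RNA genes fell in the majority, and the few that rose are Argonaute genes known from somatic cells. Of 39 measured, 31 fell and 4 rose (median −1.11). The germline Argonaute genes wago-1 (9.65, 9.92 and 9.58 against 4.96, 5.00 and 4.60; −4.86 ± 0.30), ppw-2 (−4.06 ± 0.13), wago-2 (−3.49 ± 0.10), csr-1 (−2.38 ± 0.12) and the piRNA Argonaute gene prg-1 (−2.33 ± 0.11) fell, as did rde-4, a gene for a double-stranded RNA binding partner of Dicer (−1.54 ± 0.08). The 4 that rose were the microRNA Argonautes alg-1 (0.64 ± 0.12) and alg-2 (0.46 ± 0.13), and sago-1 (0.76 ± 0.14) and nrde-3 (0.35 ± 0.12, adjusted p = 0.0233). The nrde-3 call was lost without WT EV 1 (0.31), WT EV 2 (0.31) or glp-1 EV 1 (0.22). With muscle and neuron centring alg-2 and nrde-3 turned to −0.16 and −0.26 while alg-1 and sago-1 lay at 0.03 and 0.15 and no longer passed. With an unequal variance test all 4 calls were lost (adjusted p of 0.0764 for alg-1, 0.127 for alg-2, 0.129 for sago-1 and 0.17 for nrde-3). The 4 genes did not move together on day 8 under EV. There alg-1 (1.91) and sago-1 (2.92) were higher in glp-1, and alg-2 (−2.47) and nrde-3 (−1.81) were lower. For each of the 4 the difference between ages passed.

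Oocyte and eggshell genes had the lowest median of the 36 lists, −2.92, with 25 of 32 lower and 2 higher. cpg-2 read 11.78, 11.78 and 11.61 in WT, far above 7.68, 8.55 and 4.19 in glp-1 (−4.92 ± 1.23, adjusted p = 0.00361; −3.61 without glp-1 EV 3). The eggshell protein gene cbd-1 showed the same spread (6.22, 6.87 and 4.42 in glp-1; −4.79 ± 0.70, or −4.08 without that array), and so did sip-1, a small heat shock protein gene of oocytes and embryos (9.25, 9.77 and 6.75; −4.47 ± 0.95, or −3.55). A steadier fall was seen for rme-2, the yolk receptor gene (10.08, 10.20 and 9.90 against 6.29, 6.90 and 5.43; −3.85 ± 0.43), and for mei-2, a katanin subunit gene of the meiotic spindle (−3.94 ± 0.35). The chitin synthase gene chs-1 (−3.23 ± 0.31), puf-5 (−2.64 ± 0.25) and oma-1 (−2.56 ± 0.29), which control maternal messages and oocyte maturation, also fell. perm-2 (0.11 ± 0.24) and perm-4 (0.01 ± 0.24) did not pass, but without glp-1 EV 3 both passed as higher (0.50 and 0.39, adjusted p of 0.00724 and 0.0393). The 2 that rose, etr-1 (0.54 ± 0.10), an ELAV-type RNA-binding protein gene known from muscle, and pqn-94 (0.69 ± 0.16), a gene for a glutamine-rich and asparagine-rich protein, lay at −0.07 and 0.07 with muscle and neuron centring, and the pqn-94 call was also lost with an unequal variance test (adjusted p = 0.0906). With that test cpg-2, cbd-1, sip-1, mex-5 and pos-1 no longer passed (adjusted p of 0.0611 to 0.134).

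Sperm genes fell too, by a smaller median than oocyte genes. Of 63 sperm genes, 52 fell and 1 rose (median −1.19), and all 23 major sperm protein genes fell (median −0.95, range −1.26 to −0.54). msp-40 read 13.73, 13.73 and 13.58 in WT and 12.67, 12.28 and 12.75 in glp-1 (−1.11 ± 0.11, 2.16-fold lower, adjusted p = 2.20e-06), and msp-36 fell by 0.89 (SE 0.10). All 23 rest on shared probe sets, so single members of this family cannot be told apart. spe-44, a transcription factor gene that starts the sperm program, fell more (7.97, 7.77 and 7.95 against 4.79, 4.35 and 4.37; −3.39 ± 0.18), as did the zinc transporter gene zipt-7.1 (−3.06 ± 0.14). try-5, a protease gene of male seminal fluid, rose by 0.27 (SE 0.10, adjusted p = 0.0311) at a level of 4.03 to 4.44, a call lost without WT EV 2 (0.27), WT EV 3 (0.24) or glp-1 EV 1 (0.22). It turned to −0.35 with muscle and neuron centring and was lost with quantile normalization (0.20, adjusted p = 0.0588) and an unequal variance test (adjusted p = 0.0584).

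Genes of cell division fell almost without exception. Among DNA replication genes 47 of 52 fell and 1 rose (median −1.60), and among mitosis and cytokinesis genes 78 of 81 fell and 1 rose (median −1.87). The origin recognition gene orc-1 read 7.23, 7.19 and 6.92 in WT against 4.35, 4.47 and 4.49 in glp-1 (−2.68 ± 0.10). Alongside it fell the DNA ligase gene lig-1 (−2.23 ± 0.14), psf-2 of the replicative helicase (−1.79 ± 0.11), the anillin gene ani-1 (−2.95 ± 0.12), the separase gene sep-1 (−2.59 ± 0.11) and cyk-4 of the central spindle (−2.08 ± 0.10). The members that rose hold somatic divisions in check or start them in larval blast cells: cki-1, a CDK inhibitor gene (7.91, 7.96 and 8.15 against 8.99, 8.88 and 9.09; 0.98 ± 0.09, adjusted p = 1.25e-06), and cdk-4, a G1 kinase gene (0.49 ± 0.09, turned to −0.12 with muscle and neuron centring).

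Chromatin regulators fell in the majority, 33 of 49, with 7 higher (median −0.77). Falls included set-32, a SET-domain gene of transgenerational silencing (−3.0 ± 0.20), met-2, an H3 lysine 9 methyltransferase gene (6.55, 6.76 and 6.81 against 4.89, 5.03 and 5.11; −1.70 ± 0.09, with a second probe set at −0.55), and mrg-1, a chromodomain gene that germ cells need (−1.38 ± 0.10). Rises included the demethylase gene jmjd-3.1 (1.01 ± 0.16), the heterochromatin protein gene hpl-1 (0.86 ± 0.10) and set-30 (0.56 ± 0.10), while utx-1, another demethylase gene, was called at 0.34 ± 0.12 (adjusted p = 0.0264) with overlapping groups. The utx-1 call was lost without WT EV 1 (0.26), WT EV 2 (0.31), glp-1 EV 1 (0.23) or glp-1 EV 2 (0.33). The 4 genes named here, of the 7 that rose, lie on chromosome X. On X 63.2% of probe sets rose, against 34.4% of all named probe sets. set-30 and utx-1 turned to −0.05 and −0.27 with muscle and neuron centring. With an unequal variance test hpl-1 and utx-1 did not pass (adjusted p of 0.061 and 0.191).

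Histone genes had no common direction in the deposited values (34 measured, 11 rose, 8 fell, median 0.05). With muscle and neuron centring 0 rose and 24 fell (median −0.56). The variants named by the rule fell. The linker histone genes hil-5 (12.45, 12.45 and 12.21 against 8.61, 8.49 and 7.62; −4.12 ± 0.23) and hil-4 (11.16, 11.25 and 10.95 against 7.20, 7.05 and 6.76; −4.11 ± 0.32) lost most. The H3 variant genes his-74 (−3.67 ± 0.21) and his-70 (−2.2 ± 0.16) and htz-1, which encodes H2A.Z (−1.71 ± 0.11), followed. Most of the others are copies of replication histones read on shared probe sets (21 of the 34 in all).

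In several protein complexes 1 copy of a duplicated gene fell by far more than its partner, which in 4 of 5 pairs rose. These 5 pairs were picked after their values were seen. rpl-11.1, a gene for ribosomal protein L11, read 13.50, 13.50 and 13.49 in WT and 9.91, 9.95 and 9.69 in glp-1 (−3.65 ± 0.16, 12.5-fold lower), whereas rpl-11.2 read 13.34, 13.36 and 13.43 against 13.71, 13.71 and 13.79 (0.36 ± 0.07, adjusted p = 5.40e-04). In all 3 glp-1 arrays the first copy lay far below and the second slightly above its WT range. Among the other 60 measured genes for ribosomal proteins of the cytosol 1 rose, rps-27 (0.21 ± 0.07, on a shared probe set), and 0 fell, with a median of −0.04. With muscle and neuron centring all 62 measured fell, both rpl-11 copies included (median −0.65).

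The respiratory chain showed the same split within pairs. The ATP synthase gene asb-1 fell by 2.53 (11.32, 11.32 and 11.13 against 8.69, 8.73 and 8.76), and asb-2 rose by 0.32 (SE 0.08). ucr-2.3 of complex III fell by 3.55 (9.96 to 10.04 against 6.31 to 6.62), and ucr-2.1 rose by 0.28 (SE 0.08). sdha-2 of complex II fell by 2.04 (SE 0.10), and sdha-1 rose by 0.45 (SE 0.13). Over the whole chain 7 of 48 rose and 9 fell, with a median of −0.00, and nduf-2.2, a complex I gene (−3.07 ± 0.11), and cyc-2.2, a second gene for cytochrome c (−2.31 ± 0.14), were among the falls. With muscle and neuron centring 0 of the 48 rose and 47 fell (median −0.62). In the proteasome 30 of 33 genes fell with a median of −0.46, such as rpn-7 by 0.71 (SE 0.10), and rpn-6.2 fell by 2.66 (SE 0.13) against 0.55 (SE 0.11) for rpn-6.1. Of the 5 partner copies 4 lie on chromosome X and of the 5 copies that fell most 0 do. Among all X probe sets 63.2% rose and 1.52% fell, and the pairs were picked by their values. Centring on muscle and neuron genes turned the rises of rpl-11.2, asb-2, ucr-2.1 and sdha-1 to −0.25, −0.29, −0.33 and −0.16 and left the falls. With an unequal variance test asb-2, ucr-2.1, sdha-1 and rpn-6.1 no longer passed (adjusted p of 0.0557, 0.0605, 0.15 and 0.0832), and quantile normalization also lost ucr-2.1 (0.17, adjusted p = 0.0593).

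Mitochondrial ribosomal protein genes fell by a little in most members (39 of 56, 0 rose, median −0.30), for example mrps-11 by 0.51 (SE 0.08). How many fell depends on the scaling: 25 fell and 2 rose with median centring (median −0.19), and all 56 fell with muscle and neuron centring. skr-2, a gene for an SCF ubiquitin ligase adaptor used in meiosis, fell by 4.47 (10.02, 10.12 and 9.91 against 5.72, 5.77 and 5.17), while its relative skr-4 rose by 1.09 (SE 0.09). In that family together with the fbxb F-box genes, 101 of 114 did not pass.

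**Figure D2:**
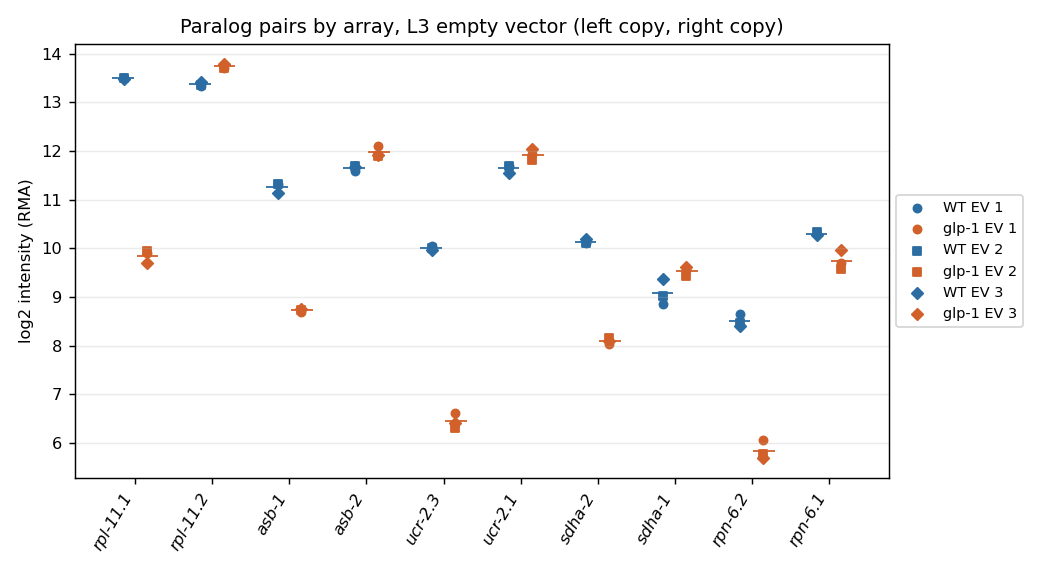
Log2 intensity of 5 pairs of paralogs in the 6 L3 EV arrays, WT in blue and glp-1 in orange, with lines at group means. The left copy of each pair drops in all 3 glp-1 arrays, and the right copy moves by 0.55 or less.

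Genes of somatic tissues lay higher in glp-1, as broad small shifts. Of muscle genes 41 of 45 rose and 0 fell (median 0.54), of neuropeptide genes 79 of 106 rose and 1 fell (0.61), of neuron genes 47 of 73 and 1 (0.40), and of intestine genes 30 of 42 and 1 (0.39), against 33.4% rising among all probe sets. Setting arrays equal on the median level of muscle and neuron genes brings both lists near or below 0 by construction (medians of −0.07 and −0.22). It therefore tests nothing about those 2 lists. With it the neuropeptide and intestine medians were −0.01 and −0.22, while with median centring all 4 medians lay at 0.49 or more. Examples that rose were the muscle genes tnt-4, a troponin T (8.41, 8.45 and 8.56 against 9.12, 9.44 and 9.49; 0.87 ± 0.11), and unc-98 (0.82 ± 0.09), the synaptic genes unc-13 (0.97 ± 0.11) and unc-64, a syntaxin (0.93 ± 0.12), the neuropeptide gene flp-16 (1.01 ± 0.08), the intestinal GATA factor gene elt-2 (0.81 ± 0.11) and the protease gene cpr-3 (0.99 ± 0.14). With muscle and neuron centring unc-98 (0.21, adjusted p = 0.0936) and elt-2 (0.20, adjusted p = 0.166) lost their call, and with an unequal variance test unc-13 did (adjusted p = 0.0515).

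The members that ran against their group were few. tdc-1, a tyrosine decarboxylase gene expressed in some neurons and in the gonadal sheath, fell by 1.75 (7.28, 7.39 and 7.42 against 5.69, 5.51 and 5.65), although another of its 3 probe sets rose by 0.38. The insulin-like gene ins-37 fell by 1.31 (SE 0.15), and asp-8, an aspartyl protease gene grouped with the intestine, by 0.78 (SE 0.15).

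The somatic gonad list moved both ways. Of 28 measured, 11 rose and 7 fell, with a median of 0.15 that turned to −0.46 with muscle and neuron centring. fkh-6, a forkhead gene of gonad development (6.86, 6.98 and 6.89 against 7.90, 7.54 and 7.91; 0.87 ± 0.10), the sheath genes ceh-18 (0.84 ± 0.11) and lim-7 (0.56 ± 0.15, −0.05 with that centring), the innexin gene inx-9 (0.84 ± 0.11) and mig-17, a metalloprotease gene of gonad migration (1.22 ± 0.12), rose. With muscle and neuron centring fkh-6 (0.26, adjusted p = 0.0556), ceh-18 (0.23, adjusted p = 0.0858) and inx-9 (0.23, adjusted p = 0.134) no longer passed, and with an unequal variance test lim-7 did not (adjusted p = 0.107). The innexins by which germ cells couple to the sheath, inx-14 (7.89, 7.83 and 7.59 against 4.01, 4.37 and 4.31; −3.54 ± 0.20) and inx-22 (−3.1 ± 0.30), fell.

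Cuticle and moulting genes were higher. Of 108 moulting and hedgehog-related genes 76 rose and 1 fell (median 0.53), of 128 col collagen genes 74 and 2 (0.30) and of 18 body shape collagen genes 12 and 0 (0.69). With muscle and neuron centring their medians were −0.08, −0.32 and 0.08. The moulting gene mlt-3 (7.20, 7.43 and 7.55 against 8.21, 8.43 and 8.53; 1.00 ± 0.11), the hedgehog-related gene wrt-4 (0.97 ± 0.09), col-76 (1.08 ± 0.12), and the collagens dpy-2 (0.84 ± 0.16) and bli-1 (1.01 ± 0.20) rose, the last pair not with muscle and neuron centring (0.23 and 0.39, adjusted p of 0.2 and 0.0607) or an unequal variance test (adjusted p of 0.0963 and 0.0615). ptr-2, a patched-related gene (−1.07 ± 0.08), and col-41 (−1.07 ± 0.19) fell. In glp-1 EV 3 the body shape collagens lay 0.73 above WT, against 0.33 and 0.59 in the other glp-1 arrays, and without that array 8 of the 18 rose.

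Vulva genes (13 of 22 rose, 3 fell, median 0.51, or −0.11 with muscle and neuron centring) included the cell fusion genes eff-1 (6.12, 5.91 and 6.39 against 7.15, 7.50 and 7.42; 1.21 ± 0.15) and aff-1 (1.05 ± 0.13). lin-3, the EGF-type ligand gene that induces the vulva, fell (−1.0 ± 0.14). Of 15 heterochronic genes, which time larval stages, 7 rose and 2 fell (median 0.14, or −0.48 with that centring). lin-29, the factor that starts the adult program, rose by 0.67 (SE 0.09; 0.06 with that centring, and adjusted p = 0.0558 with an unequal variance test), and ain-1, a microRNA complex gene, by 0.90 (SE 0.09). lin-41, a gene with a second role in oocytes, fell by 1.49 (SE 0.18), and lin-28, a gene of early larval fates, by 0.52 (SE 0.10).

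**Figure D3:**
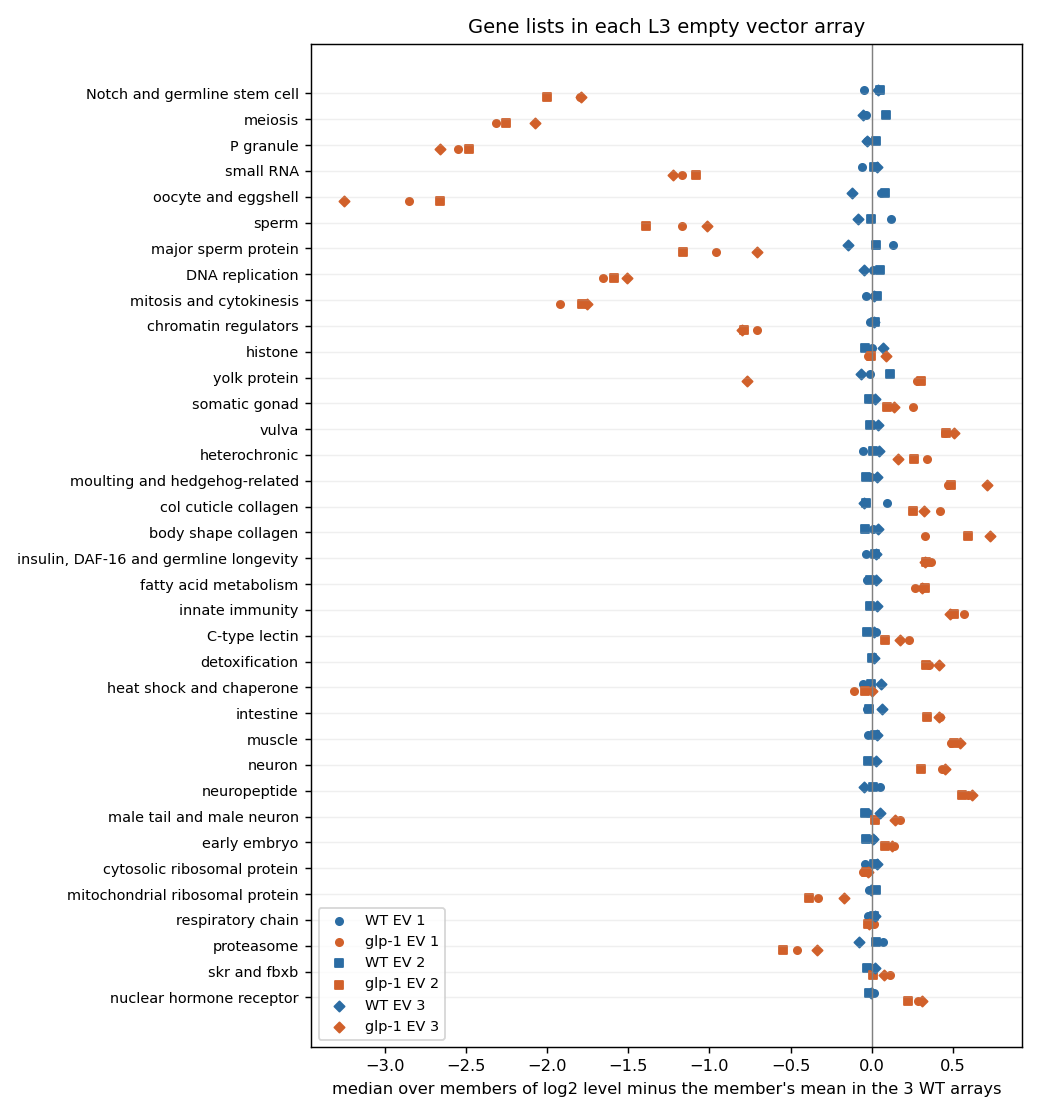
Median over the members of each of 36 gene lists of the log2 level minus the member's WT mean, for each L3 EV array (WT in blue, glp-1 in orange). The germline and cell division lists lie left of 0 in all 3 glp-1 arrays, muscle genes lie at 0.49 to 0.54 and the yolk list splits glp-1 EV 3 (−0.77) from the other glp-1 arrays (0.28 and 0.30).

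The largest single rises included genes known from defence and stress. clec-47, a C-type lectin gene, read 7.32, 6.70 and 7.28 in WT and 10.24, 10.29 and 9.61 in glp-1 (2.94 ± 0.19, 7.69-fold higher, adjusted p = 4.12e-08). C09B8.4, with no role given here, read 4.59, 4.70 and 4.84 against 7.57, 7.72 and 7.35 (2.84 ± 0.20). irg-1, an infection response gene, read 7.04, 7.06 and 7.13 against 9.41, 9.18 and 8.90 (2.09 ± 0.13). Below these came C49G7.12 (2.08 ± 0.13), parg-2, a poly(ADP-ribose) glycohydrolase gene (2.01 ± 0.16), hsp-16.41, a small heat shock protein gene (7.23, 7.29 and 7.96 against 9.10, 9.25 and 9.45; 1.77 ± 0.16), kreg-1 (1.75 ± 0.34; adjusted p = 0.0703 with an unequal variance test), the ABC transporter gene pgp-5 (1.63 ± 0.19), F44B9.2 (1.63 ± 0.09), dhs-14, a short-chain dehydrogenase gene (1.61 ± 0.09), ugt-53, a glucuronosyltransferase gene (1.59 ± 0.14), and clec-86 (1.58 ± 0.10). All 12 stayed at 0.97 or more with muscle and neuron centring. Their groups did not overlap, as the naming rule asked.

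As groups, these families moved less than their leading members. Of 67 innate immunity genes 44 rose and 0 fell (median 0.51, or −0.10 with muscle and neuron centring), among them irg-5 (1.36 ± 0.09), irg-4 (1.03 ± 0.10) and the saposin-like gene spp-24 (1.00 ± 0.08). Of 190 detoxification genes 118 rose and 6 fell (median 0.39, or −0.22), with ugt-66 (1.43 ± 0.13), ugt-26 (1.27 ± 0.11) and the glutathione transferase gene gst-4 (0.92 ± 0.09) higher and cyp-31A2, a cytochrome P450 gene of eggshell formation, lower (−1.92 ± 0.11). C-type lectins rose in 68 of 220 cases (30.9%), near the background of 33.4%, and fell in 14 (6.36%, against 22.1%). The falls clec-87 (9.09, 9.65 and 7.13 in glp-1; −3.76 ± 0.83, or −3.01 without glp-1 EV 3) and clec-91 (−3.45 ± 0.66, or −2.83) spread like the oocyte genes and did not pass with an unequal variance test (adjusted p of 0.0841 and 0.0743). Nuclear hormone receptor genes rose in 126 of 254 cases, with 1 lower (median 0.24, or −0.37 with that centring), and nhr-11 (1.21 ± 0.12) and nhr-137 (1.00 ± 0.09) were among them.

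Heat shock and chaperone genes had no common direction in the deposited values: 9 of 32 rose and 12 fell (median −0.04). With muscle and neuron centring 4 rose and 22 fell (median −0.65). Rises were seen for the stress-induced hsp-16.41, above, and for its relative hsp-16.2 (7.42, 7.60 and 7.82 against 9.08, 8.84 and 8.95; 1.34 ± 0.12). By contrast hsp-90, the abundant cytosolic chaperone gene (12.43, 12.51 and 12.52 against 11.86, 11.92 and 11.98; −0.57 ± 0.07), fell.

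Loss of the germ line is known to extend lifespan by way of the DAF-16 factor, which the insulin pathway also controls. Members of the insulin pathway moved both ways. age-1, the PI3 kinase gene, fell by 0.99 (SE 0.11). akt-2, a kinase gene downstream, read 6.64, 6.94 and 6.93 against 7.78, 7.84 and 7.99 (1.03 ± 0.11). The whole list of insulin, DAF-16 and germline longevity genes had 34 of 62 higher and 7 lower (median 0.38, or −0.23 with muscle and neuron centring).

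Fatty acid genes rose in 54 of 98 cases and fell in 16 (median 0.35, or −0.26 with that centring). The lipase gene lipl-7 rose by 1.08 (7.66, 7.52 and 7.60 against 8.58, 8.81 and 8.62). The elongase gene elo-7 (−2.52 ± 0.17), the acyl-CoA dehydrogenase gene acdh-8 (−2.19 ± 0.16) and the lipid-binding protein gene lbp-9 (−1.07 ± 0.09) fell. Sizes of the falls exceeded those of the rises in this list, which ran from −2.52 to 1.26.

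**Figure D4:**
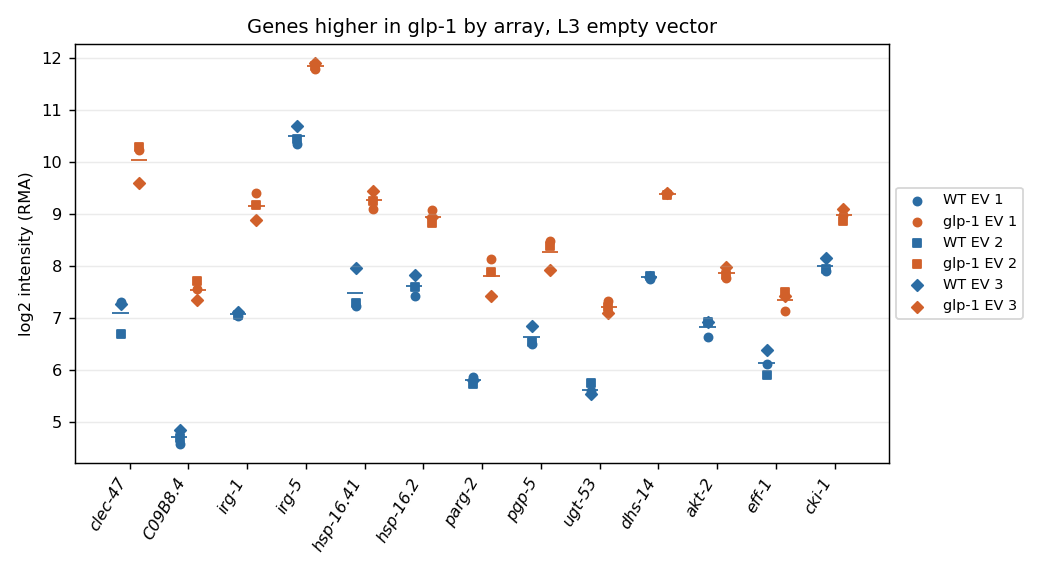
Log2 intensity of 13 genes higher in glp-1 in the 6 L3 EV arrays, WT in blue and glp-1 in orange, with lines at group means. For each gene all 3 glp-1 arrays lie above all WT arrays, which the naming rule asked of the largest rises.

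Yolk protein genes, expressed by the hermaphrodite intestine, did not pass in either direction, and 1 array decides their values. vit-2 read 11.38, 11.57 and 11.37 in WT and 11.69, 11.88 and 10.48 in glp-1 (−0.09 ± 0.26, adjusted p = 0.794). vit-6 read 13.45, 13.51 and 13.42 against 13.78, 13.66 and 12.75 (−0.06 ± 0.19, adjusted p = 0.805). For all 5 genes the first and second glp-1 arrays lay above every WT array and the third below. vit-1 (−0.15 ± 0.30), vit-4 (−0.09 ± 0.20) and vit-5 (−0.05 ± 0.21) gave adjusted p from 0.704 to 0.867. Without glp-1 EV 3 the 5 differences ran from 0.24 to 0.35 and 3 of the 5 passed, vit-2, vit-5 and vit-6 (adjusted p of 0.0167 to 0.0298). With muscle and neuron centring all 5 passed as lower (median −0.70).

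The differences were unequal over the chromosomes, named here by RefSeq (assembly WBcel235). Of 3036 probe sets for genes on X, 63.2% rose and 1.52% fell, and 0.659% fell at least 2-fold. Over all 20701 named probe sets 34.4% rose, 22.6% fell and 9.56% fell at least 2-fold. On chromosome I 35.8% fell, on III 33.4%, and on V 14.6%, the lowest share of an autosome. The median difference was 0.41 on X and between −0.01 and 0.13 on the autosomes. Muscle and neuron centring takes 0.61 off every difference, which is more than the X median. The rises on X therefore depend on the scaling, while the gap between the medians of X and the autosomes does not change with that centring. As background, X is known to be largely silent in C. elegans germ cells. Median WT levels were 5.66 on X and 4.87 to 6.88 on the autosomes, lowest on V.

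**Figure D5:**
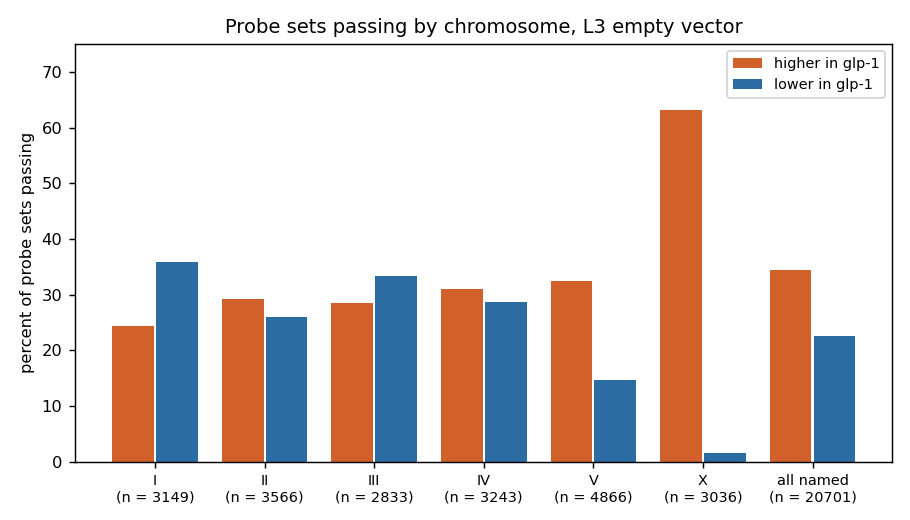
Percent of probe sets that passed as higher (orange) or lower (blue) in glp-1, by chromosome of the named gene, with the number of probe sets under each bar pair and all named probe sets at the right. X has the highest share of rises (63.2%) and the lowest share of falls (1.52%).

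The same genotype comparison was made under ash-2 RNAi, in 6 arrays that share none with those above. It gave 11023 passing probe sets (48.9%), with 6338 higher (28.1%) and 4685 lower (20.8%). Both comparisons came from the same fit to all L3 arrays and share a variance for each probe set. The overlaps below are therefore not overlaps of independent calls. Of the falls under EV, 4436 also fell under ash-2 RNAi, which is 89% of the one list and 94.7% of the other. Fewer of the large rises were shared: at least 2-fold, 173 rose in both (35.6% and 62.5%), where 1.23% of all probe sets rose that far under ash-2 RNAi. At least 2-fold, 1577 fell in both (74.2% and 96.9%), where 7.22% of all probe sets fell that far under ash-2 RNAi. Of the rises 5709 were shared (75.7% and 90.1%), and 3 probe sets higher under EV were lower under ash-2 RNAi. Single genes named here had the same sign in both, such as gld-1 at −5.36 and −4.34, glh-1 at −4.58 and −4.13, rme-2 at −3.85 and −2.41, msp-40 at −1.11 and −0.80, clec-47 at 2.94 and 3.03, and irg-1 at 2.09 and 2.86. Medians lay nearer 0 under ash-2 RNAi for oocyte (−2.92 and −2.21), P granule (−2.58 and −1.88), mitosis (−1.87 and −1.54) and meiosis genes (−2.15 and −2.07).

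No probe set passed a test of the difference between the EV and ash-2 RNAi comparisons (limma's interaction contrast; adjusted p of 0.369 or more, and 1859 with p under 0.05 before adjustment). With 1 array left out the count stayed at 0 except without L3 glp-1 ash-2 RNAi 1 (62) or 2 (11). The yolk genes lay above WT under ash-2 RNAi (5 of 5 rose, median 0.74) and not under EV, and that difference did not pass. Body shape collagens rose in 12 of 18 cases under EV and 3 under ash-2 RNAi, likewise with no passing difference.

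On day 8 the same genotypes under EV differed in 12371 probe sets (54.9%), 6376 higher (28.3%) and 5995 lower (26.6%), and many more by at least 2-fold: 4463 higher (19.8%) and 4241 lower (18.8%). Array medians of 4.89 to 5.01 on day 8 leave it likely that each age was normalized by itself, so levels are not set side by side across them. A test of the difference between the 2 ages passed for 11885 probe sets (52.7%), with the L3 difference above the day 8 one for 28.2% and below it for 24.5%. Of the falls of at least 2-fold at L3, 1438 were also falls of that size on day 8 (67.7% of the L3 list, 33.9% of the day 8 list) and 19 were rises.

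Germline groups fell at both ages and by more on day 8. The medians at L3 and on day 8 were −2.15 and −3.86 for meiosis, −2.92 and −6.39 for oocytes, −1.87 and −4.28 for mitosis, and −1.84 and −3.08 for stem cell genes. The L3 difference was less negative, by the test of the difference, for 39 of 44, 28 of 32, 77 of 81 and 17 of 26 of these genes, against 28.2% of all probe sets. Sperm genes did not follow. Major sperm protein genes had a median of −0.95 at L3 and 1.01 on day 8, when 13 of 23 were higher and 0 lower, and for these 13 the difference between ages passed. msp-40 gave −1.11 and 2.15, and spe-47 −1.54 and 0.24, while spe-44, of the start of spermatogenesis, was low at both ages (−3.39 and −3.05). Intestine genes had medians of 0.39 and 1.97, muscle genes 0.54 and 1.99, and innate immunity genes 0.51 and 2.05, and the day 8 difference was the higher one for 33 of 42, 31 of 45 and 43 of 67 by that test, against 24.5%. The yolk genes, which did not pass at L3, all rose on day 8 (median 0.93).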

How the data were processed

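Whole-worm RNA was hybridised to 1 array per sample. Deposited values are log2 intensities of probe sets from RMA, as the submitters' processing notes say. Chip definition and detection calls were not used here, and 3 arrays a group limit the precision. Symbols came from the platform annotation, updated through RefSeq (20701 of 22548 probe sets). Shared probe sets (6711, names ending in _s_at or _x_at) can bind more than 1 transcript. limma 3.58.1 in R 4.3.3 fitted group means to the 12 L3 arrays (11 for day 8, all 23 for the difference between ages), with two-sided tests and Benjamini-Hochberg adjustment over all probe sets. "Rose" and "fell" mean an adjusted p under 0.05, and errors after ± are limma's SE.

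A gene stands for its brightest probe set. Named were the 20 largest rises and falls with non-overlapping groups, up to 6 members a list by p, all stem cell, P granule and yolk genes, members opposing their list, and cell type markers, of which the text gives a selection. The comparison, the 36 lists and the members were chosen with earlier results of these data known. On simulated data (22547 probe sets, independent normal noise), 21, 43, 50 and 50 of 50 changes of log2 0.5, 1, 2 and 4 were recovered, with 12 false calls. Only these probe sets were changed there, whereas 55.5% passed in the data, so the counts need not carry over. The alternatives tried are in the closing section.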

Additional observations from a re-analysis of the deposited data

Results flagged for a closer look

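Each result here is a difference between ages in the genotype effect, tested as such. The contrast of the glp-1 minus WT difference at L3 with that on day 8 passed for 11885 probe sets. In the sperm list 8 members were lower in glp-1 at L3 and higher on day 8 with a passing difference, which is 15.4% of its falls at L3, and in the major sperm protein list 13 were (56.5%), against 3.23% of all probe sets that fell. In the moulting and hedgehog-related list 13 members were higher at L3 and lower on day 8 (17.1% of its rises at L3), against 5.77% of all probe sets that rose. In the nuclear hormone receptor list 6 were (4.76%). The shares given for all probe sets ask only for opposite calls at the ages, without the test of the difference. They also count probe sets, where the lists count genes. List shares and background shares are therefore not the same measure, and the nuclear hormone receptor share is not read against the background. Each age was probably normalized by itself, and the part this plays was not tested.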

How the results depend on the processing

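Medians of the germline lists stayed below 0 under each scaling. A few members lost their call, with 19 in place of 20 stem cell, 51 in place of 52 sperm, 46 in place of 47 DNA replication and 77 in place of 78 mitosis falls with median centring, and 46 replication and 77 mitosis falls with quantile normalization. Counts in the order of all, higher, lower, higher at least 2-fold and lower at least 2-fold were 12521, 7538, 4983, 486 and 2125. A 1.5-fold minimum gave 3064, 727 and 2337 for all, higher and lower, and an unequal variance test 7165 and 3677 for all and higher. Without shared probe sets (fewer tested) 7998 passed, 2914 lower and 1223 of these at least 2-fold. Muscle and neuron centring gave 906 higher, 15874 lower, and 15 and 4312 at least 2-fold, and 964 were at least 2-fold higher with median centring and 822 with quantile normalization. Leaving out 1 array gave 11259 to 12544, 6571 to 7799, 4688 to 4957, 449 to 703 and 2064 to 2211.

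With replicate number as a block 12800 passed, or 12254 with only the arrays compared, and no named call changed in the first and 2 were lost in the second. Deviations of same-numbered arrays correlated weakly, at 0.20, 0.15 and 0.097, and those of different-numbered arrays at −0.17 to 0.035. Each array correlated best with its own number, and the main fit used no pairing.

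Under ash-2 RNAi 11023 became 2009 with a 1.5-fold minimum, 18317 with muscle and neuron centring, 5663 with an unequal variance test, 6991 without shared probe sets, and 9772 to 10444 with 1 array left out. The genotype by RNAi difference ranged from 0 to 62, with 11 without L3 glp-1 ash-2 RNAi 2. On day 8, 12371 became 19671 with muscle and neuron centring, 5092 with an unequal variance test, 7692 without shared probe sets, and 10969 to 12069 with 1 array left out. The genotype by age difference fell from 11885 to 7031 with a 1.5-fold minimum and 7342 without shared probe sets, and left-out arrays gave 10898 to 11849.

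Muscle and neuron centring turned 20 named genes: sygl-1 (−0.54), sel-8 (−0.45), lag-2 (−0.54), lin-12 (−0.18), atx-2 (−0.58), alg-2 (−0.16), nrde-3 (−0.26), perm-2 (−0.50), perm-4 (−0.61), etr-1 (−0.074), try-5 (−0.35), cdk-4 (−0.12), set-30 (−0.054), utx-1 (−0.27), rpl-11.2 (−0.25), asb-2 (−0.29), ucr-2.1 (−0.33), sdha-1 (−0.16), lim-7 (−0.053) and col-19 (−0.45). It also turned the medians of vulva (−0.11), moulting (−0.083), col collagen (−0.32), insulin and DAF-16 (−0.23), fatty acid (−0.26), immunity (−0.10), detoxification (−0.22), intestine (−0.22), muscle (−0.071), neuron (−0.22) and neuropeptide genes (−0.0061). Median centring turned znfx-1 (0.028), vit-2 (0.014), vit-4 (0.011), vit-5 (0.058) and vit-6 (0.041), quantile normalization perm-4 (−0.051), and the mean of probe sets vit-4 (0.12).

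With 1 array left out, genes near 0 changed sign: sygl-1 (−0.0082 to 0.14), atx-2 (−0.035 to 0.094), znfx-1 (−0.16 to 0.065), perm-2 (−0.089 to 0.50), perm-4 (−0.24 to 0.39), vit-1 (−0.41 to 0.34), vit-2 (−0.35 to 0.35), vit-4 (−0.28 to 0.24), vit-5 (−0.22 to 0.29), vit-6 (−0.26 to 0.26) and col-19 (−0.025 to 0.36). Of 169 named genes that passed, 4 lost their call without some array, and 27 with an unequal variance test. Beyond the effect of each construction, the cause of these changes was not tested.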
